A study of Homo sapiens with 4 samples.

Results

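The RAB genes encode small GTPases that mark the membranes of the secretory and endocytic pathways. Members were the protein-coding genes whose symbol is RAB followed by a number and an optional letter and digit, which gave 63 of the 20037 protein-coding genes placed on GRCh38 chromosomes in RefSeq. Of these, 27 were classed by hand as RABs of endosomes, lysosomes and related organelles (endolysosomal). Another 25 were classed as RABs of the endoplasmic reticulum (ER), Golgi and exocytosis (secretory), and 11 were put in neither class. Peaks of the transcription factor USF1 were taken at each gene, and the question was whether the endolysosomal and secretory genes differ in how many carry one.

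Occupancy by USF1 was mapped with ChIP-seq, the sequencing of chromatin fragments that an antibody precipitates, in Huh7, an established line from a human hepatocellular carcinoma. All 4 libraries came from this line, made to overexpress USF1, per the design text of the series. They comprise 2 libraries of DNA precipitated with an anti-FLAG antibody (IP 1 and IP 2) and 2 of input chromatin (input 1 and input 2). The sources used here do not say whether the replicates came from separate cultures, so a pair of values shows only the spread between these samples. Cells without the tagged protein and an IgG precipitation were not analysed here, and an overexpressed protein can occupy sites that the endogenous one does not. After removal of duplicate tags the caller kept 47165647 and 43942638 tags for IP 1 and IP 2, and 46345938 and 43562726 for input 1 and input 2. List 1, of IP 1 against input 1, holds 14300 peaks, and list 2, of IP 2 against input 2, holds 27325.

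A RAB protein is switched on by a guanine nucleotide exchange factor (GEF), which loads it with GTP, and switched off by a GTPase-activating protein (GAP). In the GTP form it binds effectors that tether, move or fuse the membrane it sits on, and prenylation of its tail anchors it there. USF1 is a basic helix-loop-helix leucine zipper factor that binds the palindromic E-box CACGTG, a core also read by TFEB and TFE3, regulators of lysosomal genes, and by MYC and MAX. In hepatocytes these proteins route bile transporters, secreted plasma proteins, endocytosed ligands and autophagic cargo.

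Of the 6 RAB promoters that contain CACGTG, all belong to endolysosomal genes, and 3 of them lie under a peak found in both lists. The sites are given with 10 bases on either side, 5′ to 3′ on the strand of the gene, from the RefSeq promoter table of GRCh38.p14. They are shown because the core occurred in 1 class and not the other. Capitals mark CACGTG. The first 3 genes have a peak in both lists, RAB4A in list 2, RAB29 in list 1, and RAB31 no peak over the site in either list.
RAB21, chr12:71754833-71754858, plus strand: caccggcgctCACGTGacccgaggtg
RAB24, chr5:177303734-177303759, minus strand: gcgcccgcgcCACGTGaccttgcggc
RAB5A, chr3:19946966-19946991, plus strand: ctcgcagggtCACGTGacatcctgcc
RAB4A, chr1:229270999-229271024, plus strand: ccagcccgcgCACGTGcttccggcgc
RAB29, chr1:205775448-205775473, minus strand: ggcaaccctgCACGTGacgcttgcgg
RAB31, chr18:9708231-9708256, plus strand: ggccggcggcCACGTGacccaccgcg

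The whole 300-base windows, 250 bases before to 50 after the outermost listed gene start, are given for RAB24, RAB5A and RAB21, whose shared peaks span such a site. RAB2B, the secretory gene with the highest lower fold (the smaller of its folds in the 2 lists), is given beside them because its window holds no E-box of any kind. Capitals mark every CANNTG, the general E-box, of which CACGTG is 1 form. A window at another listed start of RAB2B holds 1 CANNTG, and sequence outside the listed windows was not searched.
RAB24, chr5:177303670-177303969, minus strand: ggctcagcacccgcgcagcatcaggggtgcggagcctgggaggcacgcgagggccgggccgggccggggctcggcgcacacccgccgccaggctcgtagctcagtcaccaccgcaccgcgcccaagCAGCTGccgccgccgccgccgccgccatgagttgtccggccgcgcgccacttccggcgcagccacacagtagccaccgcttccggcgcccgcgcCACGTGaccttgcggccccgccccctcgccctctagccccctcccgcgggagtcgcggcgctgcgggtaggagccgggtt
RAB5A, chr3:19946847-19947146, plus strand: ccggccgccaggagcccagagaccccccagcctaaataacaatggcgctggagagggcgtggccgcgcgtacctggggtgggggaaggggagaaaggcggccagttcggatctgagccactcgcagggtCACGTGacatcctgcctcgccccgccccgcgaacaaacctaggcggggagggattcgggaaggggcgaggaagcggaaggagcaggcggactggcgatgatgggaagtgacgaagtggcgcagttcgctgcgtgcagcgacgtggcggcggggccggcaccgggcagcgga
RAB21, chr12:71754613-71754912, plus strand: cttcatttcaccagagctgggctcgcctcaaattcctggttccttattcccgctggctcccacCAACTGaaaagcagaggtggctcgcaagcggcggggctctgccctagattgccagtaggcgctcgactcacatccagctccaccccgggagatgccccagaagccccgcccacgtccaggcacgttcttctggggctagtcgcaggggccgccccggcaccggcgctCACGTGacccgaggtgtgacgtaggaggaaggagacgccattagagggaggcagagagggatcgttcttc
RAB2B, chr14:21476910-21477209, minus strand: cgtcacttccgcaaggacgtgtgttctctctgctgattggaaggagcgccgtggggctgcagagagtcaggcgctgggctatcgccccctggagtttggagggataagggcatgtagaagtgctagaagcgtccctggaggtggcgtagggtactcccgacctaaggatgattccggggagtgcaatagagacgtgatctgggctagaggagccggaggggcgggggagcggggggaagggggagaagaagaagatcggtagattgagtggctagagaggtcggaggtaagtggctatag

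A shared peak is a list 1 peak with its centre in the gene or within 1 kb of it that overlaps, by at least 1 bp, a list 2 peak with its centre in the same window. Of the endolysosomal genes, 12 of 27 had a shared peak (44.4%), against 5 of 25 secretory genes (20.0%), 1 of 11 other RAB genes (9.09%) and 3360 of all 20037 protein-coding genes (16.8%). Over all RAB genes the count was 18 of 63 (28.6%). The endolysosomal share was thus above the background and the secretory share close to it, a difference of 24.4 percentage points between the classes. With a reciprocal overlap of at least 50% the difference was 13.3 points, since RAB14, RAB21 and RAB24 no longer counted. These are counts over genes, described without a test.

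The class difference depended on the list. In list 1 alone, 16 of 27 endolysosomal genes (59.3%) and 8 of 25 secretory genes (32.0%) had a peak, against 25.9% of all genes. In list 2 alone the order reversed, with 15 of 27 endolysosomal genes (55.6%) and 18 of 25 secretory genes (72%), against 47.0% of all genes. When list 2 was held to a false discovery rate (FDR, the caller's own estimate) of at most 5%, 12 of 27 endolysosomal genes (44.4%) and 10 of 25 secretory genes (40.0%) had a peak, against 25.9% of all genes. All RAB genes together stood above the background in both lists, with 27 of 63 (42.9%) in list 1 and 35 of 63 (55.6%) in list 2.

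Counts were also taken at gene starts, where a peak centre lies within 1 kb of a listed start, or of either gene end where no start is listed. Shared peaks stood at the start of 11 of 27 endolysosomal genes (40.7%) and 5 of 25 secretory genes (20.0%), against 11.8% of all genes. In list 1 alone the counts were 14 of 27 (51.9%) for endolysosomal and 5 of 25 (20.0%) for secretory genes, against 15.3% of all genes. In list 2 alone they were 13 of 27 (48.1%) and 14 of 25 (56.0%), against 30.8% of all genes. The higher share of secretory genes in list 2 was therefore also there at gene starts. Gene length differs between the classes: the median was 26521 bp for endolysosomal genes, 43253 bp for secretory genes and 24115 bp for all genes. Its part in the counts was not tested.

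**Figure D1:**
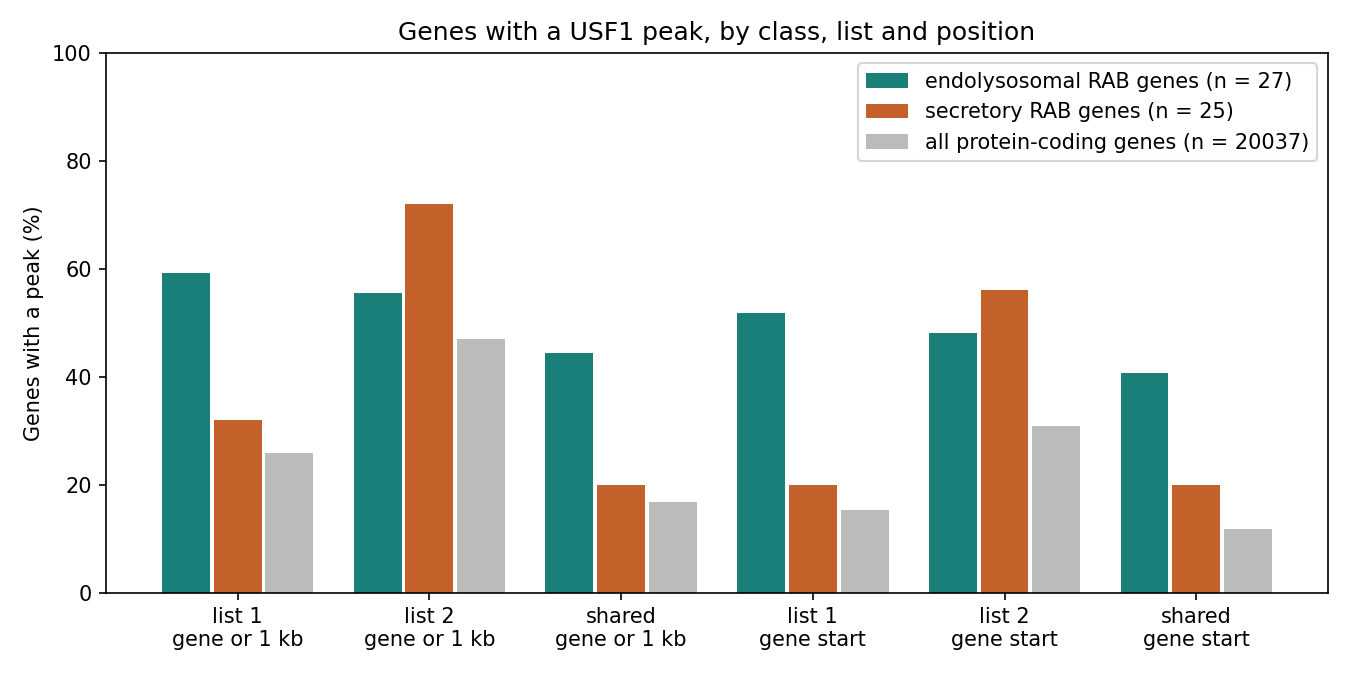
Percent of genes with a USF1 peak (vertical axis) in list 1, in list 2 and shared by both, for peaks in the gene or within 1 kb and for peaks at a gene start. Bars are endolysosomal RAB genes, secretory RAB genes and all protein-coding genes, without replicate error; the endolysosomal bar is the highest in list 1 and in the shared counts, and the secretory bar (72% and 56.0%) is the highest in list 2.

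By organelle, shared peaks were found at 4 of 7 genes of the early endosome, 4 of 9 of recycling endosomes, 3 of 8 of the late endosome, lysosome and autophagy, and 1 of 3 of lysosome-related organelles. In the secretory class they were found at 3 of 13 genes of the ER and Golgi, 1 of 8 of regulated secretion and 1 of 4 of polarised exocytosis. Over all protein-coding genes the share was 16.8%, and the groups of 13, 8 and 4 secretory genes lay near it, at 23.1%, 12.5% and 25%. The order of the groups depended on the list. Regulated secretion, which includes the RAB3 genes of synaptic and endocrine vesicles, had the lowest share with a shared peak but the highest share in list 2 alone, 7 of 8, with 3 of 8 in list 1. Early endosome genes were called at 5 of 7 in list 1 and 6 of 7 in list 2. Over all protein-coding genes, 25.9% had a peak in list 1 and 47.0% in list 2. Leaving recycling endosomes and polarised exocytosis, which meet at the plasma membrane, out of the classes left 8 of 18 endolysosomal genes (44.4%) and 4 of 21 secretory genes (19.0%).

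Of the RAB genes with a shared peak, most lay below the all-gene median in lower fold. The fold here is the authors' ratio of IP tags to the tags that the caller expected from input and local background, and a gene's lower fold is the smaller of its values in the 2 lists. The median lower fold was 4.85 for the 12 endolysosomal genes, 4.93 for the 5 secretory genes and 5.545 for the 3360 genes with a shared peak. Only 6 of the 18 RAB genes lay above that last median, 5 of them endolysosomal and 1 secretory. RAB9A and RAB24 alone reached 8-fold or more in each list, 2 of 63 genes (3.17%), against 3.28% of all genes. By lower fold RAB9A ranked 323 and RAB24 393 of 3360, and the lowest, RAB11B, ranked 2960.

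The caller's FDR separated the lists. At the 18 shared RAB peaks the list 1 FDR ran from 10.36% to 100%, with 12 of 18 above 50% and 4 at 100%. In list 2 the FDR was at most 1% for 12 of 18 and at most 5% for 16 of 18, leaving out RAB11A and RAB27B. None of the RAB genes, 0 of 63, had an FDR of 5% or less in each list, against 1.30% of all genes. With the FDR held to 5% in list 2 only, shared peaks stood at 11 of 27 endolysosomal and 4 of 25 secretory genes, 16 of 63 RAB genes in all (25.4%), against 12.5% of all genes. Over the 3360 genes with a shared peak the median list 1 FDR was 74.14% and the median list 2 FDR 0.75%.

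**Figure D2:**
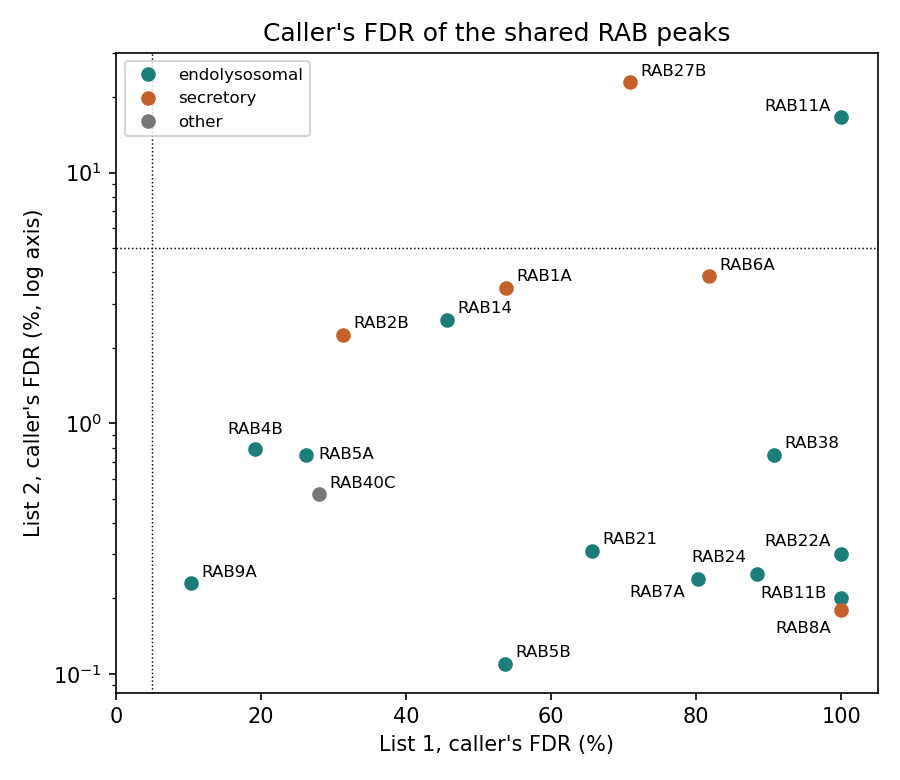
The caller's FDR of each shared RAB peak in list 1 (horizontal axis, percent) and list 2 (vertical axis, percent, log scale), coloured by class; dotted lines mark 5%. All 18 points lie right of the list 1 line, and 16 lie below the list 2 line.

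Among early endosome genes, RAB5A, the GTPase that drives early endosome fusion, had the shared peak with the highest lower fold and the most tags. It lay at chr3:19946523-19948193 in list 1, with 166 IP tags in list 1 and 224 in list 2. The fold was 7.9 and 7.75, nearly equal between the lists, with an FDR of 26.21% and 0.75%. The summits stood 175 and 121 bp before the gene start, and the centre was also within 1 kb of an end of the neighbouring coding gene EFHB. Its paralogue RAB5B carried a peak at chr12:55973089-55974463 with 121 and 187 tags, a fold of 4.01 and 6.69 and an FDR of 53.67% and 0.11%. That peak also reached within 1 kb of the cell cycle kinase gene CDK2. RAB5C, the third RAB5, was called in list 1 only, at 8.75-fold with 54 tags and an FDR of 56.52%.

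RAB21, which acts in the endocytosis of integrins, had a peak at chr12:71754605-71755412. It held 66 tags in list 1 and 142 in list 2, with a fold of 5.83 and 8.85 and an FDR of 65.66% and 0.31%. The list 2 peak had more tags and the higher fold. RAB22A, which acts on early endosomes and recycling tubules, showed a like pattern at chr20:58309302-58310592, with 86 and 205 tags, a fold of 4.05 and 8.22 and an FDR of 100% and 0.3%. Its ratio of folds between the lists, 2.03, was the largest of the 18 genes. The RAB22A paralogue RAB31 had a peak in list 2 only, of 7.79-fold, centred 31589 bp inside the gene.

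Among recycling genes, RAB4B, of the rapid route back to the plasma membrane, had a peak at chr19:40777760-40779015 with 108 and 110 tags, a fold of 6.82 and 5.19 and an FDR of 19.16% and 0.79%. It lay within 1 kb of an end of MIA. RAB14, which links the Golgi and endosomes, had a peak at chr9:121201527-121202442 with 93 and 144 tags, a fold of 6.96 and 4.14 and an FDR of 45.58% and 2.59%. It lay within 1 kb of an end of the gelsolin gene GSN. RAB11A, the main GTPase of the recycling endosome, had one of the lowest folds, at chr15:65868843-65869902 with 90 and 109 tags, a fold of 4.22 and 4.00 and an FDR of 100% and 16.68%. RAB11B, its close paralogue, had 96 and 148 tags at chr19:8389657-8391131, a fold of 3.91 and 5.37 and an FDR of 100% and 0.2%. The RAB11B fold in list 1 was the lowest of any shared RAB peak. RAB25, the epithelial member of the RAB11 group, had no peak in either list.

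By lower fold, the 2 highest shared peaks belonged to genes of the late endosome and autophagy. RAB9A, which returns mannose 6-phosphate receptors from late endosomes to the Golgi, had 136 and 179 tags at chrX:13688799-13690512, a fold of 10.92 and 10.13 and an FDR of 10.36% and 0.23%. Its list 1 FDR was the lowest of the 18. The summits were 19 bp apart and lay 924 and 943 bp into the gene, outside the promoter window, and the paralogue RAB9B had no peak. RAB24, an atypical RAB found on autophagic compartments, had 71 and 149 tags at chr5:177303304-177304168, a fold of 9.47 and 15.24 and an FDR of 88.37% and 0.25%. Its summits fell 19 and 28 bp before the gene start, within 1 kb of an end of PRELID1, a mitochondrial lipid transfer gene. RAB7A, which governs fusion of late endosomes with lysosomes, was moderate, with 123 and 117 tags at chr3:128725724-128727366, a fold of 4.51 and 7.91 and an FDR of 80.24% and 0.24%. Its summits stood 723 bp apart, the widest gap of the 18, and RAB7B had no peak.

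The shared peak of RAB38, needed for melanosomes and other lysosome-related organelles, was the only 1 of the 18 not counted at a gene start. No start is listed for this gene, so only its ends were checked. The peak lay at chr11:88131660-88132550, 43338 bp inside the gene from its nearer end. It had 76 and 90 tags, a fold of 6.05 and 9.09 and an FDR of 90.67% and 0.75%. The gene held 6 peaks in list 1 and 12 in list 2. That is 1.61 and 3.21 peaks per 100 kb, against 0.593 and 1.22 over all protein-coding genes and 1.06 and 1.75 over all RAB genes. Only the shared peak overlapped between the lists, and the FDR of the list 1 peaks ran from 87.57% to 100%.

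In the secretory class, RAB2B, which acts between the ER and Golgi, had the highest lower fold. Its peak at chr14:21476616-21477549 held 55 and 56 tags, with a fold of 8.74 and 6.35 and an FDR of 31.23% and 2.26%, and it lay within 1 kb of an end of TOX4. The paralogue RAB2A had no peak, the nearest being 28805 bp off in list 1 and 28509 bp off in list 2. RAB1A, the GTPase of ER-to-Golgi transport, had 72 and 111 tags at chr2:65129761-65130704, a fold of 7.08 and 5.26 and an FDR of 53.76% and 3.48%. The 2 summits were 1 bp apart and no start is listed for this gene. RAB6A, of retrograde Golgi traffic, had 65 and 72 tags at chr11:73760883-73761725, a fold of 6.84 and 4.93 and an FDR of 81.7% and 3.87%. For all 3 of these ER and Golgi genes the fold was higher in list 1.

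RAB8A, of polarised exocytosis and the cilium, had 110 tags in each list at chr19:16110844-16112143. Its fold was 4.12 and 7.00, with an FDR of 100% and 0.18%, so that the lists differ in fold at equal tags. RAB27B, of granule and exosome secretion, had the fewest tags, 40 and 41, at chr18:54828275-54828954, where an internal gene start is listed. The fold was 5.9 and 4.08 and the FDR 70.87% and 22.98%. Outside both classes, RAB40C, which joins a cullin ubiquitin ligase through its SOCS box, had 129 and 126 tags at chr16:588657-590421, a fold of 5.29 and 5.71 and an FDR of 28.03% and 0.52%.

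**Figure D3:**
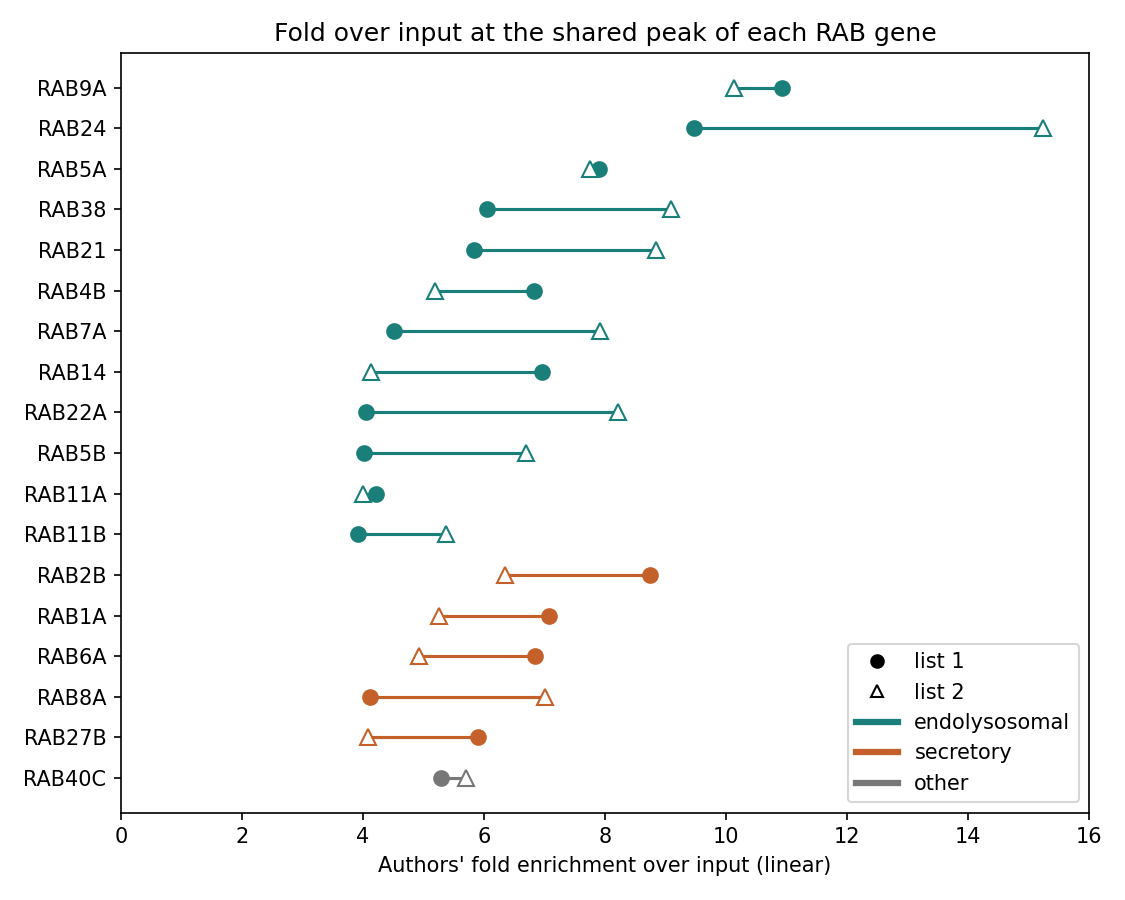
The authors' fold over input (horizontal axis, linear) at the shared peak of each RAB gene, with list 1 as filled circles and list 2 as open triangles, coloured by class. RAB9A and RAB24 lie above 8 in both lists, and list 2 is the higher for 9 of the 18 genes (2245 of 3360 over all genes with a shared peak).

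Between the lists, the ratio of the 2 folds was at most 1.5 for 10 of the 18 genes. The fold was higher in list 2 for 9 of 18, while IP tags were higher in list 2 for 15 of 18. Over all genes with a shared peak these counts were 2245 and 2208 of 3360. The tag counts of the RAB peaks ran from 40 to 166 in list 1 and from 41 to 224 in list 2. By class, the median fold of the 12 endolysosomal shared peaks was 5.94 in list 1 and 7.83 in list 2, and that of the 5 secretory ones 6.84 and 5.26. Endolysosomal peaks also held more tags, with medians of 94.5 and 146, against 65 and 72 for secretory peaks and 77 and 89 over all genes.

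Most shared peaks of RAB genes lay over promoters. Over all protein-coding genes, 3360 had a shared peak and 2360 had one at a gene start. Of the 18 RAB peaks, 17 stood at a gene start, 16 of them at a start that is listed with its strand. The summit was within 300 bp of that start for 13 of 16 genes in each list. The 2 summits of a gene were 91.5 bp apart in the median, at most 100 bp apart for 9 of 18. For 6 of the 18 the peak centre was also within 1 kb of an end of another coding gene, a count not taken over all genes. At RAB4B, RAB6A, RAB11A, RAB11B and RAB22A it was within 1 kb of an end of a non-coding gene. Which gene such a peak serves cannot be told from these data. Counting only peaks whose centre lies inside the gene left 7 of 27 endolysosomal genes (25.9%) and 1 of 25 secretory genes (4.00%), and 8 of 63 RAB genes in all (12.7%), against 9.08% of all genes. Of the shared peaks outside their gene, the farthest centre was 396 bp away, at RAB8A in list 1.

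**Figure D4:**
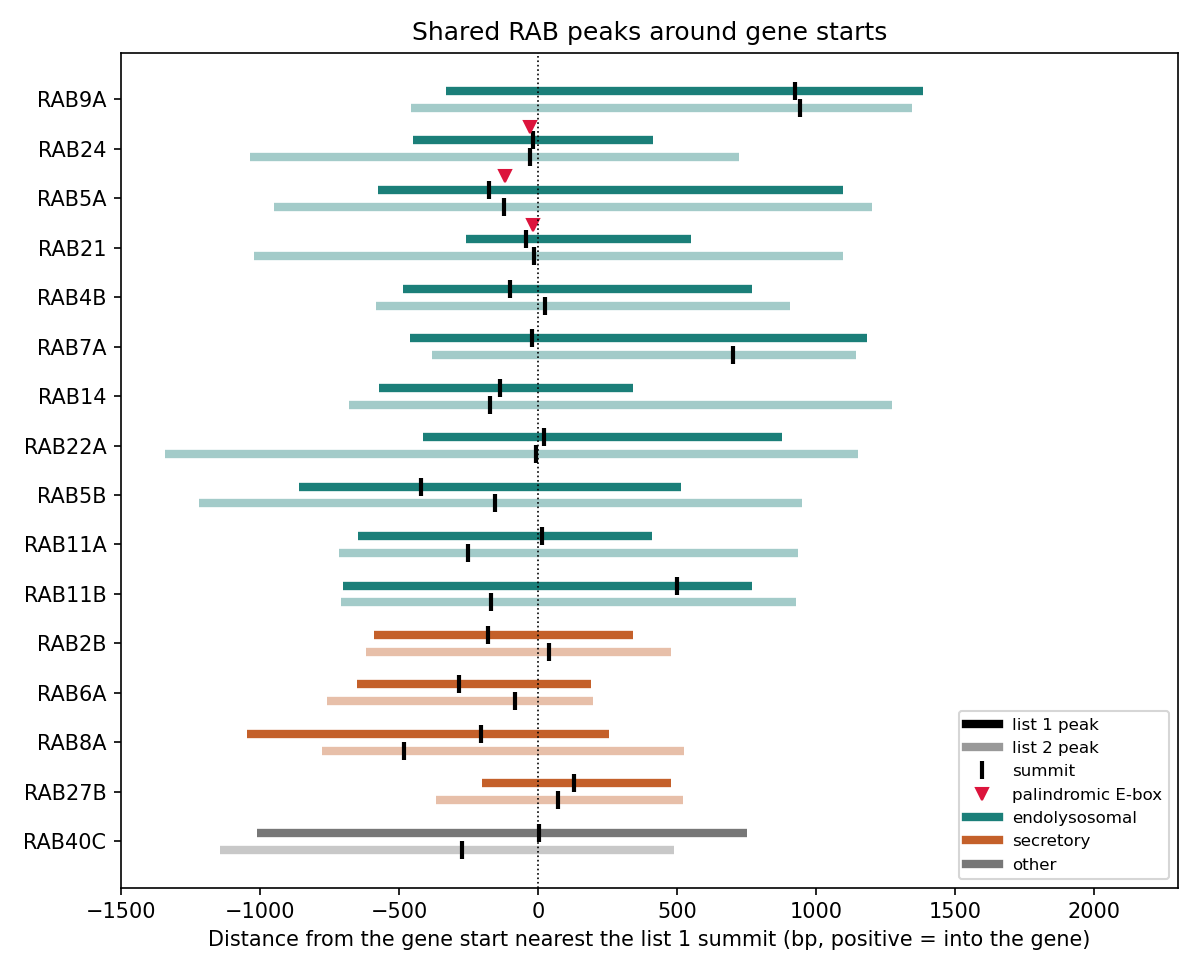
Extent of the shared peaks of the 16 RAB genes with a listed start, as distance in bp from the gene start nearest the list 1 summit (horizontal axis, positive into the gene), with list 1 in full colour, list 2 in pale colour, black ticks for summits and triangles for the palindromic E-box. Most summits lie within 300 bp of the start, RAB9A lies 924 and 943 bp inside the gene in list 1 and list 2, and the 3 triangles stand within 57 bp of a summit.

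The promoter sequence is a measure that no peak enters, and it too is described without a test. CACGTG, which reads the same on both strands, was present in 6 of the 23 endolysosomal promoters listed (26.1%), 0 of 19 secretory promoters, and 1398 of 15843 protein-coding promoters (8.82%). The longer TCACGTGA, which contains it, was present at RAB5A and RAB21, 2 of 50 RAB promoters, against 1.4% of all promoters. The general form CANNTG, of which CACGTG is a case, was present in 18 of 23 endolysosomal promoters (78.3%), 9 of 19 secretory promoters (47.4%) and 64.6% of all. A match describes these letters in this window, not a bound site.

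Where a RAB promoter held CACGTG under a peak, the summit lay close to it. At RAB21 the site was 26 and 2 bp from the list 1 and list 2 summits, at RAB24 9 and 1 bp, and at RAB5A 57 and 3 bp. Over the 560 genes whose site lies wholly under the shared gene-start peak in both lists, of 577 with a site and such a peak, the median distance was 22.5 bp in list 1 and 18.5 bp in list 2. At RAB4A, of rapid recycling, the site was 17 bp from the summit of a list 2 peak of 3.85-fold. At RAB29, of lysosomes and the trans-Golgi network, it was 89 bp from the summit of a list 1 peak of 5.36-fold. At RAB31, the site 60 bases before the start lay under no peak.

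Most shared RAB peaks stood over promoter windows without this core. The counts below cover only the bases from 250 before to 50 after the outermost listed gene start. A summit lay outside that window at genes such as RAB5B, RAB6A, RAB7A, RAB8A, RAB9A and RAB11B. Whether CACGTG lies elsewhere under these peaks was not tested. Of RAB genes with a shared gene-start peak and a listed promoter, 3 of 16 held CACGTG (18.8%), against 577 of 2031 such genes overall (28.4%). A shared gene-start peak was found at 3 of 6 RAB promoters with the core and at 13 of 44 without it (29.5%), while over all genes the shares were 41.3% with it and 10.1% without. Among promoters without the core, endolysosomal genes had such a peak at 8 of 17 (47.1%) and secretory genes at 4 of 19 (21.1%). What part the core has in the difference between classes was not tested.

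RAB genes come in close paralogues, and in 13 of 18 such groups some members had a shared peak and others did not. In 11 of the 18 exactly 1 member had one, and in none did all. No such count was taken over other paralogue groups, so these counts show nothing particular to RAB paralogues. A shared peak stood at 28.6% of RAB genes and 16.8% of all genes. RAB4B, RAB1A, RAB8A, RAB22A and RAB40C had a shared peak where RAB4A, RAB1B, RAB8B, RAB31 and RAB40B were called in list 2 only. RAB6A stood alone in a group of 5, as RAB6B, RAB6C, RAB6D and RAB41 had no peak. RAB38 had one where RAB29 was called in list 1 only and RAB32 had none. RAB27B and RAB27A were both called in both lists, but the RAB27A peaks did not overlap: 7.57-fold in list 1 and, at another position, 9.21-fold in list 2. The 4 RAB3 genes had no shared peak, though RAB3A and RAB3B were called in list 2 and RAB3C in both lists at different places.

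Of the 45 RAB genes with no shared peak, 6 were called in list 1 only, 14 in list 2 only, 3 in both lists without overlap and 22 in neither. As shares of the 63 these are 9.52%, 22.2%, 4.76% and 34.9%, against 4.49%, 25.6%, 4.61% and 48.5% of all protein-coding genes. Genes of list 2 only thus outnumbered those of list 1 only over all genes too. The genes of list 1 only were RAB5C, RAB39A, RAB35, RAB29, RAB28 and RAB23, 4 of 27 endolysosomal genes (14.8%) and 0 of 25 secretory genes among them. After RAB5C their folds ran from 4.78 for RAB23 to 5.46 for RAB39A. Called in list 2 only were 3 of 27 endolysosomal genes (11.1%) and 10 of 25 secretory genes (40.0%). The highest were RAB31, RAB8B at 6.81-fold, RAB33A at 6.8, RAB40B at 6.61, RAB37 at 6.37 and RAB20 at 5.78, and their FDR ran from 4.27% for RAB40B to 18.36% for RAB33A. RAB1B, the paralogue of RAB1A, held 289 tags in list 2 at 4.78-fold with an FDR of 0.25% and had no list 1 peak in its window. Of the other genes of list 2 only, the folds ran from 3.16 at RAB30 to 5.57 at RAB3B. RAB10, of polarised exocytosis, held 58 tags at 5.22-fold with an FDR of 2.9%, and RAB26, of secretory granules, 81 tags at 5.15-fold with an FDR of 1.66%, both at the gene start. RAB43, of the Golgi, held 95 tags at 4.47-fold with an FDR of 22.66%. Of the genes called in both lists without overlap, RAB33B, which joins the Golgi to autophagy, had 4.55-fold in list 1 and 6.29-fold in list 2. RAB3C had 5.46-fold in list 1 and 6.44-fold in list 2.

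No peak of either list was found at 22 RAB genes. In the endolysosomal class these were RAB7B, RAB9B, RAB12, RAB15, RAB17, RAB25, RAB32 and RAB34, and in the secretory class RAB2A, RAB3D, RAB6B, RAB6C, RAB13, RAB19 and RAB41. In neither class they were RAB6D, RAB18, RAB36, RAB39B, RAB40A, RAB42 and RAB44. The group includes RAB17 and RAB25, known from epithelial cells, and RAB18, known from lipid droplets and the ER. The nearest peak was 57664 bp from the gene in the median in list 1 and 23654.5 bp in list 2, and 1405965 bp away at RAB17 in list 1. RAB34 lay just outside the window, with the nearest peak 1207 bp from the gene in list 1 and 1386 bp in list 2. For 1 gene of list 1 only, RAB5C, a list 2 peak lay 3617 bp from the gene, and for RAB35 the nearest was 7846 bp off.

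The genes that load, switch and read RAB proteins were examined as a list of 136. Of these, 41 had a shared peak (30.1%), against 16.8% of all genes. They were 13 of 34 GAPs, 13 of 44 GEFs, 14 of 50 effectors, and 1 of 8 genes of prenylation and the membrane cycle, the escort protein gene CHML. A shared peak of 8-fold or more in both lists at once stood at 12 of 136 (8.82%), against 3.28% of all genes. With an FDR of 5% or less in both lists at once, the count was 4 of 136 (2.94%), against 1.30%. The median lower fold of the 41 was 5.81, against 5.545 over all genes with a shared peak. At gene starts, 31 of the 136 had a shared peak (22.8%), against 11.8% of all genes. The 136 are long genes, with a median of 63956.5 bp against 24115 bp for all genes. The part of length in their counts was not tested.

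The highest of these by lower fold was TBC1D30, a GAP gene, at 22.58-fold in list 1 and 21.05-fold in list 2. RAB3GAP2, a subunit of the complex that inactivates RAB3 and activates RAB18, had 12.22 and 16.64-fold, and SMCR8, a partner of C9orf72 in autophagy, 11.38 and 17.88-fold. TBC1D20, the GAP of RAB1, had 10.94 and 10.63-fold, while the RAB1A peak itself had 7.08 and 5.26-fold. DENND6A, the GEF of RAB14, had 10.42 and 19.15-fold, against 6.96 and 4.14-fold at RAB14. RIN2, a GEF of RAB5, had 10.53 and 11.77-fold, and RPH3A, an effector of RAB3, 9.66 and 9.46-fold. TBC1D1, a GAP of insulin-controlled RABs, had 9.1 and 9.56-fold. These 3 peaks were not counted at a gene start, and for RIN2, with no listed start, only the gene ends were checked.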

How the data were processed

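The data were 2 peak lists, 1 for each IP against the input of its number. Per the file headers, the caller was MACS 1.4.2, its p cutoff 1e-05, and 1 tag was kept per position. Bowtie2, deepTools, HOMER and GRCh38 are named per the submitters' processing notes. The authors give 4 deposited values per peak: a count of IP tags without scaling for depth, a fold (the ratio over the expected background), a score of minus 10 times log10 of the caller's p, and an FDR in percent. Deposited scores were not used for any result here. MACS 1.4 estimates this FDR by exchanging IP and input, so it depends on how many peaks the input gives. No interval is given for single peaks, since the lists hold no depth per peak in input.

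Genes and promoter sequences came from RefSeq GRCh38.p14, the build of the peaks. Of 63 RAB genes 50 have a promoter and strand listed, as have 15843 protein-coding genes. Exon and intron positions were not used here. Classes were assigned by hand from the known location of each protein, and some assignments are a matter of choice. RAB12, RAB13, RAB14, RAB29 and RAB34 act at several locations. RAB14, which has a shared peak and links the Golgi and endosomes, was counted as endolysosomal. RAB18, known from lipid droplets and the ER and without a peak, was put in neither class. The effect of moving such genes to another class was not tested. The members and gene lists were chosen with earlier results of these data known. RAB6D matched the symbol rule after the files were read and was put in neither class. Genes named are those with a shared peak, the 6 with the highest fold in each list alone, 5 RABs whatever their values, split paralogue groups and the 8 regulators with the highest lower fold; CHML and the other RAB genes, named to account for each member, were added after their values were seen. Counts are set beside all protein-coding genes, and no test was run over members. The overlap and window steps were checked on simulated peaks. Python 3.11.15, numpy 2.4.6, pandas 2.3.3 and matplotlib 3.10.9 were used. Alternatives were other windows, overlaps, thresholds and classes, and each list alone.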

Additional observations from a re-analysis of the deposited data

How the results depend on the processing

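With 1 list left out, genes with a peak ranged from 27 to 35 of 63 RAB genes and 15 to 16 of 27 endolysosomal genes. The range was 8 to 18 of 25 secretory genes and 54 to 99 of 136 regulators and effectors. Over all protein-coding genes the share was 25.9% in list 1 alone and 47.0% in list 2 alone. The difference between endolysosomal and secretory shares, 24.4 points with both lists, was 27.3 points in list 1 alone and reversed to -16.4 points in list 2 alone. The cause was not tested. An FDR limit of 5% on list 2 alone, chosen after seeing the data, left a difference of 4.44 points. Under it 10 secretory genes and 63 regulators had a peak, against 25.9% of all genes. Requiring 8-fold or more in each list left 2 RAB genes, 2 endolysosomal, 0 secretory and 12 regulators. Requiring an FDR of 5% or less in each left 0, 0, 0 and 4, and a centre inside the gene 8, 7, 1 and 18. Of all genes, 8-fold left 3.28%, the FDR limit 1.30% and a centre inside the gene 9.08%. In these settings the counts fall because fewer peaks qualify. The other settings (a gene start, a summit in place of a centre, 5 kb, reciprocal overlap of 50%, narrower classes, and the later choice of FDR in list 2 with overlap) kept the class order. With a reciprocal overlap of 50% the difference was 13.3 points, as RAB14, RAB21 and RAB24, all endolysosomal, were lost, and with 8-fold in each list it was 7.41 points. No paired analysis was possible because the peak caller had already joined each IP to its input, which leaves 1 list per number. RAB27B had the fewest IP tags of the shared peaks, 40 and 41, and the part of depth in the calls was not tested.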
